A study of Mus musculus with 6 samples.

Results

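The cyclins, cyclin-dependent kinases (CDKs) and inhibitors of the G1 phase were examined in the RNA of the fetal mouse cortex. The set was given by name and holds 10 genes: the D-type cyclins Ccnd1, Ccnd2 and Ccnd3, their kinases Cdk4 and Cdk6, the E-type cyclins Ccne1 and Ccne2 with their kinase Cdk2, the inhibitor Cdkn1b and the pocket protein Rb1. All 10 were found in the table of 56198 entries and all 10 were among the 14518 named genes tested. Fetuses were C57BL/6 at E14.5. In the Sevo group (3 samples) the dam inhaled sevoflurane at 2.5%, with oxygen making up 97.5% of the gas, and in the Ctr group (3 samples) the dam inhaled oxygen at 100%. Both exposures lasted 6 h, and the cortices were taken at their end, so every group had been kept in high oxygen. The values are TPM, an abundance divided by transcript length and scaled to one total per sample, so levels can be compared between genes. Read depth is not kept in TPM, and no counting interval can be given. The sources used here do not give the number of fetuses and dams behind a sample, so the p-values below measure the spread between these samples, which may be technical.

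As background, a cell in G1 decides whether to divide again or to leave the cycle. D-type cyclins bind CDK4 and CDK6 and begin the phosphorylation of the retinoblastoma protein, which holds E2F transcription factors in check. Freed E2F raises the E-type cyclins, which bind CDK2, complete the phosphorylation and start S phase, while p27, the product of Cdkn1b, binds and inhibits the CDK2 complexes. In radial glial progenitors (RGPs), whose nuclei move away from the ventricle during G1, a longer G1 goes with more neurogenic divisions, and forced D-cyclin and CDK4 activity in the mouse cortex shortens G1 and favours progenitor expansion.

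Of the 10 genes, Ccne2 stood furthest from zero, with a mean in the Sevo group 0.609 times that of the Ctr group, and no gene passed an adjusted p of 0.05 (limma, Benjamini-Hochberg over the 14518 genes). Every Sevo sample was below every Ctr sample for Ccne2 and Ccne1, which is 2 of 10 genes against 17.7% of all tested genes, and no gene of the set was above (9.43% of all tested genes). By limma at an unadjusted p under 0.05, 1 of the 10 was lower, again Ccne2, against 12.8% of all tested genes, and 0 were higher against 6.56%. These shares lie near those of all genes. At the adjusted threshold 0.00689% of all tested genes were lower and 0 were higher. The log2 fold change, taken here on log2(TPM + 1), was negative for 8 of the 10 genes against 58.9% of all tested genes. Its median was -0.18 over the set and -0.06 over all tested genes. After median centring, which sets the median log2(TPM + 1) of the samples equal, these medians were -0.084 and 0.037, 1 of the 10 genes was lower at that p against 6.14% of all tested genes, and 0 were higher against 11.6%. The median of the set was -0.11 after quantile normalization and -0.081 with a loess on exon length. The cortex is a mixed tissue, and in such bulk RNA fewer cells of a type and less RNA per cell cannot be told apart.

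**Figure D1:**
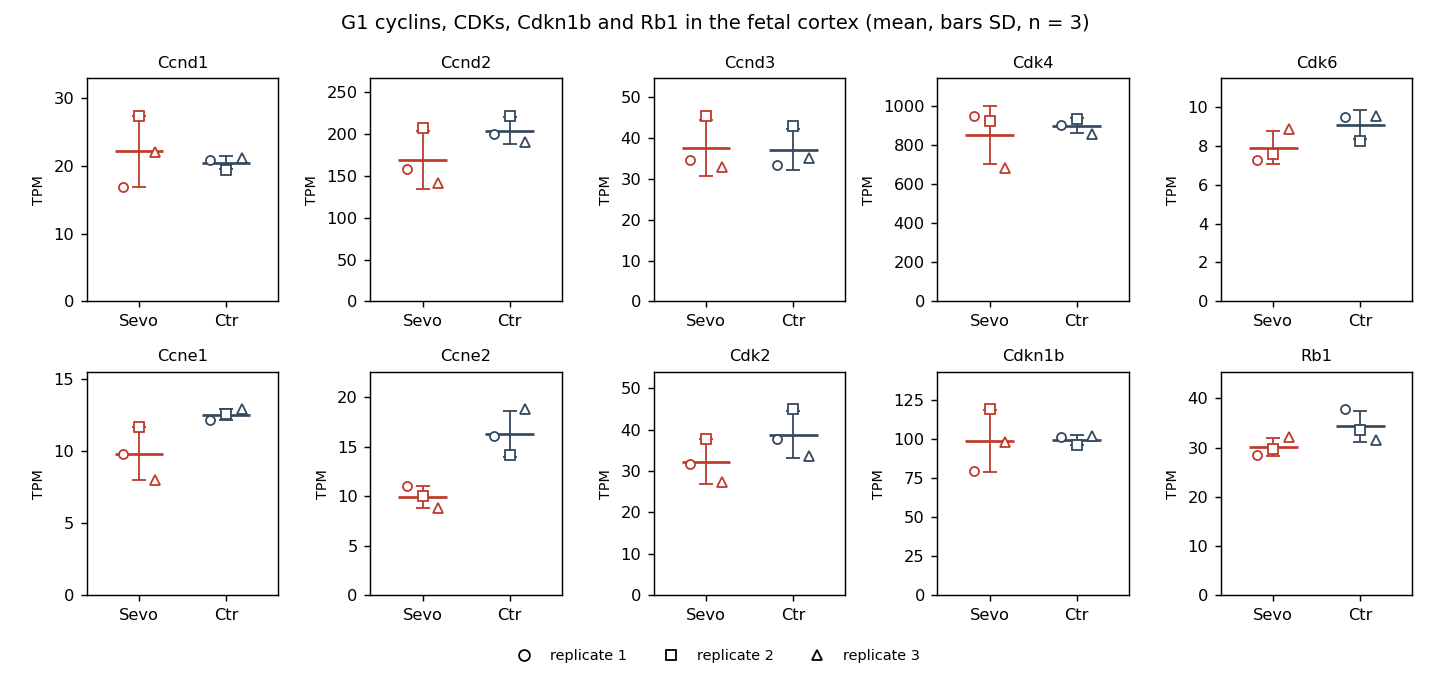
TPM (vertical axis, from 0) of the 10 genes in each sample of the Sevo and Ctr groups; symbols mark the replicate number, horizontal lines the mean and bars the SD of 3 samples. Only for Ccne1 and Ccne2 do the Sevo samples all lie below the Ctr samples.

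The order of the levels was nearly the same in both groups. Cdk4 was the most abundant at a mean of 852 TPM in the Sevo group and 898 TPM in the Ctr group, followed by Ccnd2 at 169 and 204 TPM and Cdkn1b at 98.8 and 99.6 TPM, with no overlap of the samples' ranges between these neighbours. Ccnd3, Cdk2 and Rb1 formed the middle of the order, and their neighbours' ranges overlapped in either group. Ccnd1, at 22.1 TPM in the Sevo group and 20.4 TPM in the Ctr group, lay below them. At the low end Ccne2, Ccne1 and Cdk6 had 9.94, 9.81 and 7.91 TPM in the Sevo group with overlapping ranges. In the Ctr group the same genes had 16.3, 12.5 and 9.09 TPM with ranges that did not overlap. The lowest Ctr value was 14.12 TPM for Ccne2, and the highest was 12.89 TPM for Ccne1.

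E-type cyclins drive the passage into S phase, and both had lower values in the Sevo cortex. Ccne2 (ENSMUSG00000028212, chromosome 4, 11191351 to 11204779 on GRCm38, plus strand) had 11.04, 10 and 8.77 TPM in the Sevo samples, against 16.04, 14.12 and 18.77 TPM in the Ctr samples. All 3 Sevo samples were below all 3 Ctr samples. The gap of the groups was wider than the range within the Sevo group and narrower than the range within the Ctr group. Its log2 fold change was -0.66 (standard error, SE, 0.15, 95% interval -1.01 to -0.31, adjusted p = 0.109, limma). Among all tested genes, 2.69% had a log2 fold change at or below that of Ccne2. The two-sided exact permutation test gave p = 0.1, the smallest value that 3 against 3 samples allow. Ccne1 (ENSMUSG00000002068, chromosome 7, 38097984 to 38107534, minus strand) had 9.81, 11.67 and 7.96 TPM in the Sevo samples, against 12.15, 12.55 and 12.89 TPM in the Ctr samples. The Ctr samples were close together, and Sevo replicate 2 lay just under them. This corresponded to a log2 fold change of -0.34 (SE 0.16, 95% interval -0.70 to 0.02, adjusted p = 0.286, limma), with 14.9% of tested genes at or below it. Without Sevo replicate 3 it was -0.21 and without Sevo replicate 2 it was -0.46.

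Exons of Ccne2 share 609 of 3495 bases with Ints8, a subunit of the Integrator complex on the opposite strand, and reads of the shared part cannot be told apart without strand information. Ints8 had 31.1, 18.1 and 33.0 TPM in the Sevo samples, against 46.9, 45.0 and 48.5 TPM in the Ctr samples, and its log2 fold change of -0.80 (SE 0.21, limma adjusted p = 0.128) had the sign of Ccne2. Ints8 was lowest in Sevo replicate 2 and Ccne2 in Sevo replicate 3. The part of Ints8 reads in the Ccne2 values was not tested. Ccne1 shares no exon with another annotated gene.

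Cdk2 (ENSMUSG00000025358, chromosome 10, 128697939 to 128705031, minus strand), the kinase that both E-type cyclins activate, had 31.83, 37.89 and 27.25 TPM in the Sevo samples, against 37.68, 44.94 and 33.78 TPM in the Ctr samples. The groups overlapped, since Sevo replicate 2 was above Ctr replicates 1 and 3. On the log2 scale the difference was -0.26 (SE 0.15, 95% interval -0.62 to 0.10, adjusted p = 0.397, limma). Without Ctr replicate 2, and likewise without Sevo replicate 3, it was -0.15.

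Since Ccne1 and Cdk2 act in one complex and both had negative values, their promoters are shown, from 250 bases before to 50 after the RefSeq start (GRCm38.p6), each read along its gene. In the Ccne1 window (chr7:38107441-38107740, minus strand) capitals mark the GC box GGGCGG on either strand, and in the Cdk2 window (chr10:128705002-128705301, minus strand) they mark a match to the E2F letters TTTGGCGC, TTTGCCGC, TTTCGCGC or TTTCCCGC on either strand.
Ccne1: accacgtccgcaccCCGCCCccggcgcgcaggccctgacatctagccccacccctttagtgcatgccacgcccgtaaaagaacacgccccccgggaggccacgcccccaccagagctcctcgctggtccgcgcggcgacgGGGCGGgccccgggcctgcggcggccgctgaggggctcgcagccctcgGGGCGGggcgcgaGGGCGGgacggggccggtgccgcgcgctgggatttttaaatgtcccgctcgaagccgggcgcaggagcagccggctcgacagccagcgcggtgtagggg
Cdk2: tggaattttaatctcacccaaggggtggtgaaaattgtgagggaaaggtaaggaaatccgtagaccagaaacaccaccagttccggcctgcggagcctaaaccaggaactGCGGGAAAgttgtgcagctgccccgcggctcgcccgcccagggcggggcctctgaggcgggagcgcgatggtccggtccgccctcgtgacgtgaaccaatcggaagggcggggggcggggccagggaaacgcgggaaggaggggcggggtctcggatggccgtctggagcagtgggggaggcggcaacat
The Cdk2 window held 1 E2F match, at position -140 from the start, read as TTTCCCGC on the other strand, whereas these letters were not in the Ccne1 window. Of all 32851 RefSeq windows of this length, 2.26% held the E2F letters and 35.7% a GC box. The Ccne1 window held 4 GC boxes and the Cdk2 window 6. No matches of different motifs overlapped. RefSeq windows were at hand for 6 of the 10 genes, namely Ccnd3, Cdk4, Cdk6, Ccne1, Cdk2 and Cdkn1b, and not for Ccnd1, Ccnd2, Ccne2 and Rb1. A match is a description of letters and not a measured binding site.

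D-type cyclins link growth signals to the cell cycle, and none of the 3 had groups that were apart. Ccnd2 (ENSMUSG00000000184, chromosome 6, 127125162 to 127152193, minus strand), the main D-type cyclin of these samples and one whose mRNA is carried into the basal processes of RGPs, had 158.18, 207.87 and 141.10 TPM in the Sevo samples, against 199.84, 222.20 and 190.96 TPM in the Ctr samples. Sevo replicates 1 and 3 were below every Ctr sample, and Sevo replicate 2 was within the Ctr range. The log2 fold change was -0.29 (SE 0.14, 95% interval -0.62 to 0.05, adjusted p = 0.320, limma). It was -0.45 without Sevo replicate 2 (adjusted p = 0.0830, limma) and -0.17 without Sevo replicate 3.

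Ccnd1 (ENSMUSG00000070348, chromosome 7, 144929931 to 144939925, minus strand), a cyclin of dividing progenitors, had 16.88, 27.40 and 22.10 TPM in the Sevo samples, against 20.91, 19.31 and 21.12 TPM in the Ctr samples. The Sevo samples lay on either side of the Ctr group, and Sevo replicates 1 and 2 were the lowest and the highest of all 6. Its log2 fold change was 0.08 (SE 0.17, 95% interval -0.31 to 0.48, adjusted p = 0.823, limma). It was -0.08 without Sevo replicate 2 and 0.26 without Sevo replicate 1.

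Ccnd3 (ENSMUSG00000034165, chromosome 17, 47505051 to 47599691, plus strand) had 34.56, 45.54 and 32.90 TPM in the Sevo samples, against 33.47, 42.90 and 35.26 TPM in the Ctr samples. In either group replicate 2 was the highest, and the groups lay over each other. This corresponded to a log2 fold change of 0.01 (SE 0.15, 95% interval -0.35 to 0.37, adjusted p = 0.976, limma), and it was -0.13 without Sevo replicate 2.

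**Figure D2:**
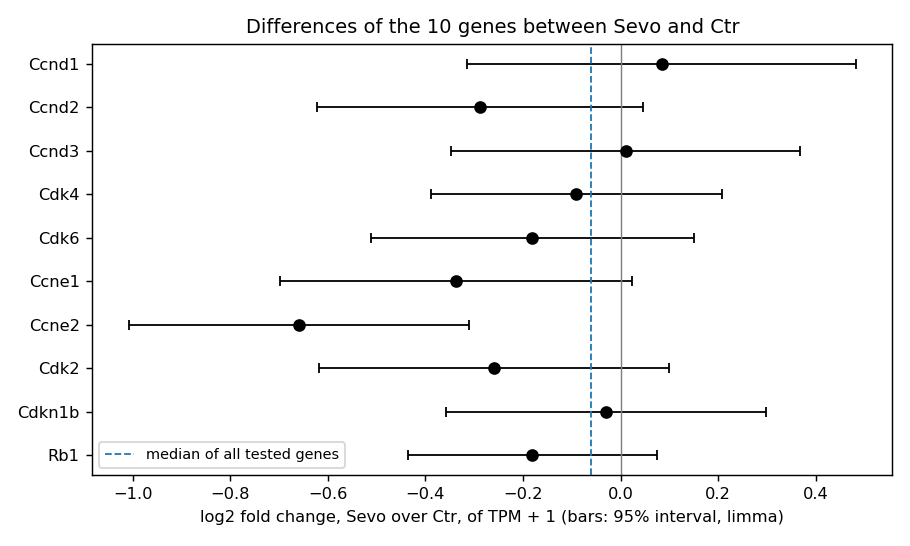
Log2 fold change of each of the 10 genes, Sevo over Ctr, on log2(TPM + 1) (horizontal axis), with the 95% interval from limma; the dashed line is the median of all tested genes, -0.06. Only the interval of Ccne2, -1.01 to -0.31, does not hold 0.

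Summed over the 3 genes, D-type cyclins had 210, 281 and 196 TPM in the Sevo samples, against 254, 284 and 247 TPM in the Ctr samples (two-sided exact permutation test, p = 0.3). The shares within this sum, which do not depend on the scaling of a sample, were computed after the values had been seen. Ccnd2 made up 75.5%, 74.0% and 72.0% of the sum in the Sevo samples, against 78.6%, 78.1% and 77.2% in the Ctr samples. Ccnd3 made up 16.5%, 16.2% and 16.8% in the Sevo samples, against 13.2%, 15.1% and 14.3% in the Ctr samples. For these shares the groups did not overlap, with that of Ccnd2 lower and that of Ccnd3 higher in the Sevo group, and the two-sided exact permutation test gave p = 0.1 for each, its smallest possible value. The share of Ccnd1 overlapped between the groups, at 9.69% ± 1.61 in the Sevo group and 7.85% ± 0.93 in the Ctr group (SD, n = 3). Exons of all 3 D-type cyclin genes overlap another gene, namely LTO1 for Ccnd1, Gm43126 and 9330179D12Rik for Ccnd2 and Bysl for Ccnd3. LTO1, which shares 1100 of 4709 bases of Ccnd1, had means of 21.9 TPM in the Sevo group and 31.1 TPM in the Ctr group. Its log2 fold change was -0.53 (adjusted p = 0.227, limma), beside 0.11 for Gm43126 and -0.29 for Bysl. The part of these genes in the shares was not tested. Summed over the E-type cyclins, the Sevo samples had 20.9, 21.7 and 16.7 TPM, against 28.2, 26.7 and 31.7 TPM in the Ctr samples, with no overlap (two-sided exact permutation test, p = 0.1).

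**Figure D3:**
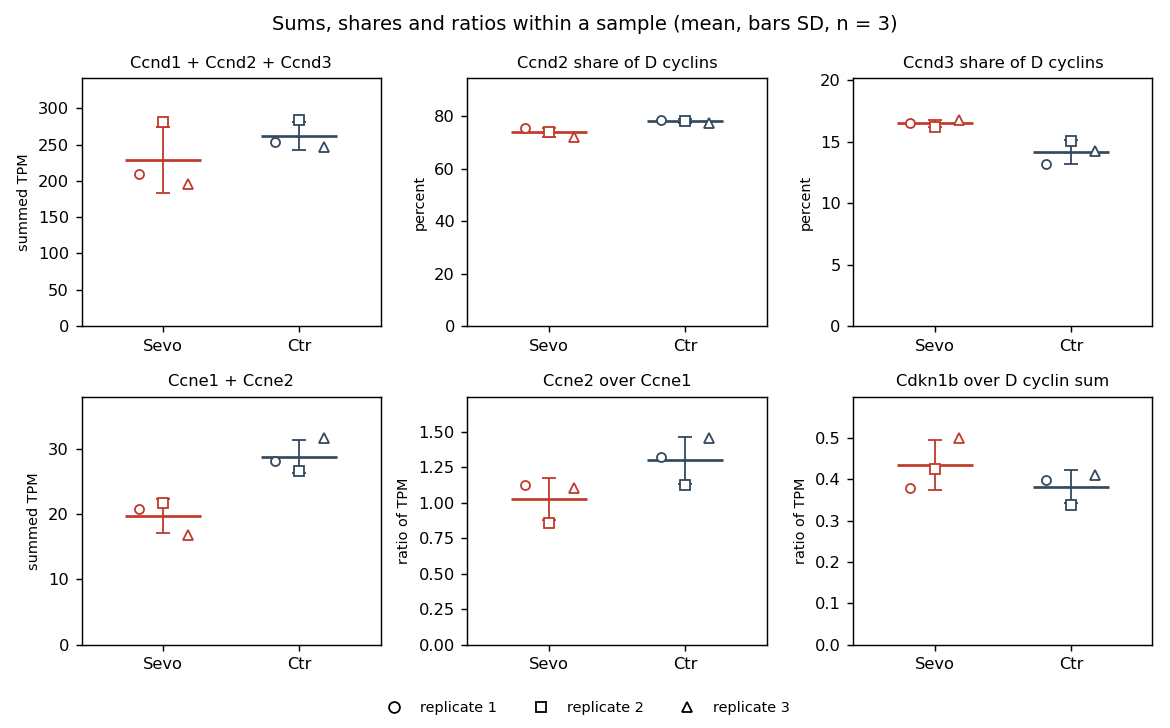
Sums (TPM), shares (percent) and ratios of TPM within each sample (vertical axes, from 0) for the Sevo and Ctr groups; symbols mark the replicate number, lines the mean and bars the SD of 3 samples. The sum of Ccne1 and Ccne2 lies at 16.7 to 21.7 TPM in the Sevo samples and at 26.7 to 31.7 TPM in the Ctr samples, and the shares of Ccnd2 and Ccnd3 are apart by a few percent of the sum.

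Cdk4 and Cdk6 encode the kinases that D-type cyclins activate. Cdk4 (ENSMUSG00000006728, chromosome 10, 127063534 to 127067920, plus strand) had 950.67, 922.02 and 683.31 TPM in the Sevo samples, against 902.50, 933.57 and 858.30 TPM in the Ctr samples. Sevo replicate 3 was the lowest of all 6 and Sevo replicate 1 the highest. On the log2 scale the difference was -0.09 (SE 0.13, 95% interval -0.39 to 0.21, adjusted p = 0.741, limma), and it was 0.06 without Sevo replicate 3. Exons of Cdk4 share 641 of 3249 bases with Tspan31 (log2 fold change -0.16, adjusted p = 0.580, limma). The part of that gene in the Cdk4 values was not tested. Cdk6 (ENSMUSG00000040274, chromosome 5, 3341485 to 3531008, plus strand) had 7.28, 7.56 and 8.88 TPM in the Sevo samples, against 9.47, 8.23 and 9.56 TPM in the Ctr samples. Sevo replicates 1 and 2 were below every Ctr sample, and Sevo replicate 3 was within the Ctr range. The log2 fold change was -0.18 (SE 0.14, 95% interval -0.51 to 0.15, adjusted p = 0.525, limma). Cdk4 exceeded Cdk6 by 131, 122 and 76.9 times in the Sevo samples, against 95.3, 113 and 89.8 times in the Ctr samples, so Cdk4 was the main D-cyclin kinase at the RNA level in every sample.

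The Cdk4 promoter is shown because this gene is the most abundant of the set and its window is dense in one motif. Capitals mark the E-box CACGTG, the letters that Myc proteins bind and which read the same on both strands, in the RefSeq window chr10:127063285-127063584 (GRCm38.p6, plus strand).
Cdk4: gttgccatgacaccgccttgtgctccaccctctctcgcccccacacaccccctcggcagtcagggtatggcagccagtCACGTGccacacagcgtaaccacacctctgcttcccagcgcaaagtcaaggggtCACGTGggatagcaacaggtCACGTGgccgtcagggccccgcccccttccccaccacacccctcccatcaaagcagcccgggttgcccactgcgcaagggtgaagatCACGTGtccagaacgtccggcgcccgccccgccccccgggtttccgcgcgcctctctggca
The window held 4 E-boxes, at positions -172, -118, -98 and -11 from the start, while 7.15% of all RefSeq windows held at least 1. Of the other windows of the set, that of Cdk6 held 1, and the remaining windows held 0. The motifs were searched after the expression values had been seen.

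Cdkn1b (ENSMUSG00000003031, chromosome 6, 134920401 to 134925513, plus strand), the gene of the p27 inhibitor that rises as cells leave the cycle, had 79.47, 119.02 and 97.98 TPM in the Sevo samples, against 101.18, 95.92 and 101.72 TPM in the Ctr samples. The Sevo samples spread on both sides of a narrow Ctr group. Its log2 fold change was -0.03 (SE 0.14, 95% interval -0.36 to 0.30, adjusted p = 0.931, limma). It was 0.12 without Sevo replicate 1 and -0.17 without Sevo replicate 2. Rb1 (ENSMUSG00000022105, chromosome 14, 73183673 to 73325822, minus strand), the gene of the retinoblastoma protein, had 28.45, 29.68 and 32.14 TPM in the Sevo samples, against 37.75, 33.57 and 31.59 TPM in the Ctr samples. Sevo replicate 3 was above Ctr replicate 3, and the other Sevo samples were below every Ctr sample. This corresponded to a log2 fold change of -0.18 (SE 0.11, 95% interval -0.44 to 0.07, adjusted p = 0.406, limma), and it was -0.11 without Ctr replicate 1. Exons of Rb1 share bases with Rcbtb2 and Lpar6 on the other strand, and Rcbtb2 had a log2 fold change of -0.42 (adjusted p = 0.141, limma).

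Ratios of TPM within a sample were compared for 5 pairs, since a ratio does not depend on how a sample was scaled. As ratios of the TPM themselves none had groups that were apart, and all 5 had an adjusted p of 0.5 or more (two-sided exact permutation test, Benjamini-Hochberg over the 5 ratios; the smallest unadjusted p possible is 0.1). Ccnd2 exceeded Ccnd1 by 9.37, 7.59 and 6.38 times in the Sevo samples, against 9.56, 11.5 and 9.04 times in the Ctr samples, a log2 difference of -0.38. Sevo replicate 1 was within the Ctr range, and the other Sevo samples were below it. Ccne2 over Ccne1 was 1.13, 0.857 and 1.10 in the Sevo samples, against 1.32, 1.13 and 1.46 in the Ctr samples, a log2 difference of -0.34, with Sevo replicate 1 and Ctr replicate 2 at about the same value. With 1 TPM added to each gene the log2 difference of this pair was -0.32 and the groups were just apart (two-sided exact permutation test, p = 0.1). The log2 difference was 0.18 for Cdkn1b over the D cyclin sum and 0.24 for Cdkn1b over Cdk2. With 1 library left out these ran from 0.074 (without Sevo replicate 3) to 0.27 and from 0.098 (without Ctr replicate 2) to 0.38. Cdk6 over Cdk4 had a log2 difference of -0.11, which was 0.031 without Sevo replicate 1 and -0.35 without Sevo replicate 3.

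The 3 Sevo samples did not carry the same pattern over the 10 genes. Sevo replicate 1 was below every Ctr sample for 8 of the 10 genes and above for 1, Sevo replicate 3 was below for 6 and above for 1, and Sevo replicate 2 was below for 4 and above for 3. Ccnd1, Ccnd3 and Cdkn1b were highest of all 6 samples in Sevo replicate 2. Sevo replicate 3 had the lowest value of Ccnd2, Ccnd3, Cdk4, Ccne1, Ccne2 and Cdk2, and Sevo replicate 1 that of Ccnd1, Cdk6, Cdkn1b and Rb1. The lowest value of each of the 10 genes was thus in a Sevo sample. These counts per sample were not taken over all tested genes, so they cannot be read as a trait of the set. Without Sevo replicate 2, 4 of the 10 genes were lower by limma at an unadjusted p under 0.05 (Ccnd2, Ccne1, Ccne2 and Cdk2), against 15.5% of all tested genes, and the same 4 had groups that were apart, against 26.6% of all tested genes.

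Markers of neighbouring tissue also differed between these libraries. The summed TPM of 6 markers of the ganglionic eminence, the source of cortical interneurons, was 56.3, 175 and 126 in the Sevo samples, against 85.7, 92.9 and 105 in the Ctr samples. Ccnd1 and Cdkn1b were lowest in the library with the lowest sum, Sevo replicate 1, and highest in the one with the highest, Sevo replicate 2. No other gene of the set had both extremes there, and Cdk4 was highest in Sevo replicate 1. In Sevo replicates 1 and 2, Dlx2 had 10.2 and 41.9 TPM and Nkx2-1, which marks the medial eminence, 0.08 and 1.87 TPM. Sevo replicate 2 was also the highest of all 6 in the RGP markers Pax6 and Sox2 (146 and 144 TPM), named after their values had been seen. It was the lowest of all 6 in the RGP markers Vim and Hes1 (632 and 22.15 TPM), named likewise. The other RGP markers had neither extreme there, so the RGP markers did not go one way in this library. Of the 5 tested markers of the ganglionic eminence, 0 passed an unadjusted p of 0.05 from limma (12.8% of all tested genes were lower and 6.56% higher). The summed TPM of 5 markers of the meninges was 5.31, 14.1 and 4.94 in the Sevo samples, against 2.68, 66.0 and 5.17 in the Ctr samples. Ctr replicate 2, the highest, also had the highest Ccnd2 and Cdk2 of all 6. Without Sevo replicate 2 and Ctr replicate 2, an alternative chosen after seeing the data, 6 of the 10 genes were lower with groups apart, against 30.7% of all tested genes, and Ccnd2, Ccne1 and Ccne2 were lower by limma at an unadjusted p under 0.05. The part of these tissues in the values of the 10 genes was not tested.

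The summed TPM of markers was lower in every Sevo sample for RGPs. It overlapped between the groups for intermediate progenitors, through Sevo replicate 1 alone, and for neurons. That of 8 markers of RGPs was 1898 to 2116 in the Sevo samples and 2340 to 2523 in the Ctr samples, with 3 of 8 lower by limma at an unadjusted p under 0.05 (12.8% of all tested genes), and that of 6 markers of intermediate progenitors was 477 to 783 in the Sevo samples and 775 to 798 in the Ctr samples, with 3 of 6 lower. For 7 neuronal markers it was 2775 to 3243 in the Sevo samples and 2821 to 3257 in the Ctr samples, with 1 of 7 lower. That 1 was Tbr1 (log2 fold change -0.49, adjusted p = 0.108, limma), named after its values had been seen. The median log2 fold change was -0.23 over the RGP markers, -0.39 over those of intermediate progenitors and -0.11 over those of neurons. Negative values were held by 6 of 8, 6 of 6 and 6 of 7, against 58.9% of all tested genes. Groups were apart and lower for 1, 3 and 1, against 17.7%. The most abundant were Fabp7 and Vim of RGPs (log2 fold change -0.38 and -0.29), Neurog2 and Eomes of intermediate progenitors (-0.40 and -0.38) and Tubb3 and Neurod6 of neurons (0.08 and -0.17), and none passed an adjusted p of 0.05 (limma). Neurog2 had 254, 212 and 106 TPM in the Sevo samples, against 240, 229 and 242 TPM in the Ctr samples, with overlap. Fabp7 and Vim, at means of 997 and 800 TPM over the 6 samples, made up most of the RGP sum. Of the other RGP markers, Sox2 and Slc1a3, named after their values had been seen, had log2 fold changes of 0.28 and 0.06. No marker of these lists was at 0 in any sample. The part of these cells in the values of the E-type cyclins was not tested.

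Other genes of the G1 and cell cycle machinery, in 8 lists that hold 64 genes, were read from the same fit. Of the 62 that were tested, 13 were lower and 1 was higher by limma at an unadjusted p under 0.05, against 12.8% and 6.56% of all tested genes, and 0 passed the adjusted threshold. Their median log2 fold change was -0.14, beside -0.06 for all tested genes. It was -0.068 without Sevo replicate 3 and -0.045 after median centring. The count of lower genes was 25 without Sevo replicate 2 (15.5% of all tested genes) and 7 without Sevo replicate 3 (13%). It was 8 without Ctr replicate 1 (7.82%) and 8 without Ctr replicate 2 (7.98%), where the share over all tested genes was lower as well.

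**Figure D4:**
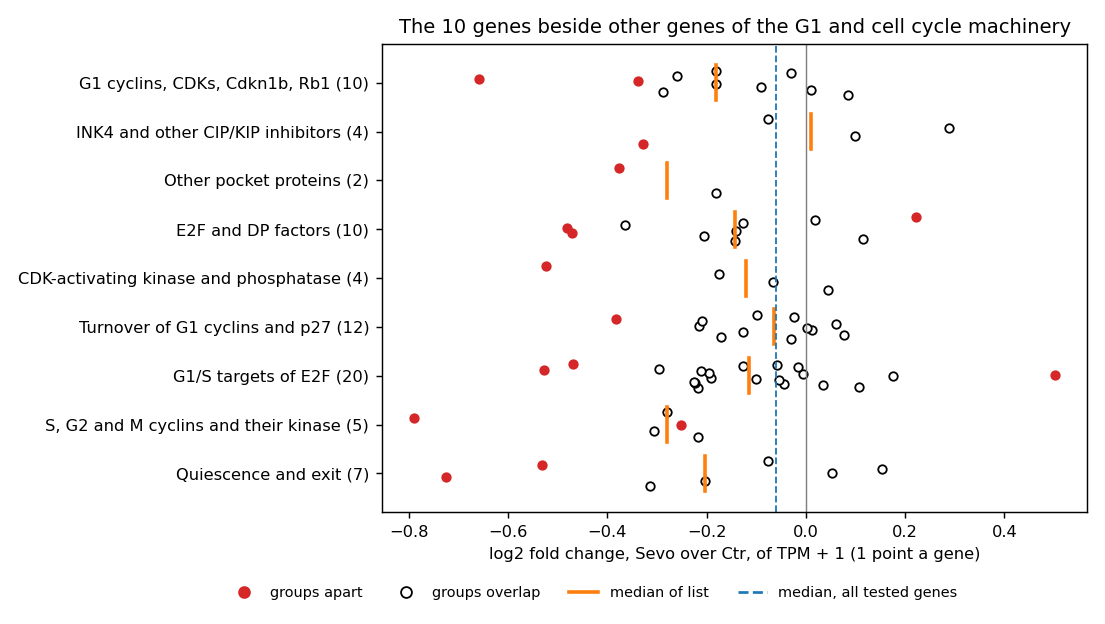
Log2 fold change, Sevo over Ctr, on log2(TPM + 1) (horizontal axis) of the 10 genes (top line) and of the tested genes of 8 lists, with the number of genes in brackets; filled points are genes whose Sevo and Ctr samples do not overlap, orange bars list medians and the dashed line the median of all tested genes. Ccne2 at -0.66 is the lowest of the 10, and the list medians lie between -0.28 and 0.01.

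Among the other CDK inhibitors, 1 of 4 tested was lower by limma at an unadjusted p under 0.05 (12.8% of all tested genes). It was Cdkn2c, an inhibitor of CDK4 and CDK6, with 16.5 ± 1.8 TPM in the Sevo group and 20.9 ± 1.3 TPM in the Ctr group (SD, n = 3). The abundant Cdkn1c, whose product p57 restrains progenitor division, and Cdkn2d, of the postmitotic neuron, had log2 fold changes of -0.08 and 0.10. The list median was 0.01. Cdkn2a and Cdkn2b were under the minimum of 1 TPM. Of the other pocket proteins, which bind E2F as the retinoblastoma protein does, Rbl2 had a log2 fold change of -0.38 and was lower at that p, and Rbl1 had -0.18.

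E2F factors carry the output of G1. Of 10 tested E2F and DP genes, 2 were lower by limma at an unadjusted p under 0.05 (12.8% of all tested genes). They were E2f4, which represses genes together with pocket proteins, and E2f6, a repressor that works without them. E2f4 had 36.3, 33.2 and 31.9 TPM in the Sevo samples, against 49.9, 46.4 and 45.5 TPM in the Ctr samples, a log2 fold change of -0.47 (SE 0.10, limma adjusted p = 0.0940). E2f6 had 24.5, 21.3 and 20.4 TPM in the Sevo samples, against 28.7, 33.4 and 31.6 TPM in the Ctr samples, a log2 fold change of -0.48 (SE 0.12, limma adjusted p = 0.116). The groups were apart for both repressors, beside 17.7% of all tested genes that were apart and lower. The activator E2f1 had 13.3, 17.8 and 13.2 TPM in the Sevo samples, against 13.8, 18.1 and 17.3 TPM in the Ctr samples, with overlap, and is named after its values had been seen. The partner Tfdp1, the most abundant of the list, had a log2 fold change of 0.02, and the list median was -0.14.

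In the list of CDK activation, the phosphatase Cdc25a, which removes inhibitory phosphates from CDK2, was lower by limma at an unadjusted p under 0.05, with 17.3, 22.1 and 13.3 TPM in the Sevo samples, against 27.3, 22.8 and 25.7 TPM in the Ctr samples. On the log2 scale the difference was -0.52 (SE 0.18, limma adjusted p = 0.187), beside -0.07 for Ccnh, the cyclin of the CDK-activating kinase, and a list median of -0.12. Of 12 genes of the turnover of G1 cyclins and p27, 1 was lower at that p (12.8% of all tested genes). It was Cul3, the scaffold of an E3 ligase that takes part in the destruction of cyclin E, with 78.7 ± 3.2 TPM in the Sevo group and 103 ± 8.4 TPM in the Ctr group (SD, n = 3; log2 fold change -0.38, adjusted p = 0.116, limma). Skp1a and Cul1, the most abundant and both of the SCF ligase, had log2 fold changes of 0.08 and -0.13, and the list median was -0.06.

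Of 20 G1/S targets of E2F, 2 were lower and 1 was higher by limma at an unadjusted p under 0.05. Of all tested genes 12.8% were lower and 6.56% higher at that p. The median over the targets was -0.11. Tyms, of thymidylate synthesis, and Gins1, of the replicative helicase, had log2 fold changes of -0.53 and -0.47 (adjusted p = 0.0855 and 0.119, limma). Orc1, of the origin recognition complex, had 3.54, 4.46 and 3.80 TPM in the Sevo samples, against 2.05, 2.93 and 2.49 TPM in the Ctr samples, and was the gene with a higher value (0.50, adjusted p = 0.202, limma). The most abundant, Pcna and Mcm7, had log2 fold changes of -0.01 and -0.10. In a list of 5 genes, Cdk1 and cyclins of S, G2 and M, 3 were lower at that p (12.8% of all tested genes). They were Ccnf (-0.79), Ccnb1 (-0.31) and Ccnb2 (-0.25). The list median was -0.28, and the most abundant, Cdk1 and Ccna2, had -0.28 and -0.22. Of 7 genes of quiescence and exit, 2 were lower at that p (12.8% of all tested genes), Gadd45g (-0.72) and Trp53inp1 (-0.53). The median of this list was -0.20. Gadd45g, a growth arrest gene of new intermediate progenitors, had 133, 72.5 and 66.8 TPM in the Sevo samples, against 139, 146 and 146 TPM in the Ctr samples. Sevo replicate 1 was near the Ctr group, and without it Gadd45g passed the adjusted threshold (adjusted p = 0.0339, limma).

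**Figure D5:**
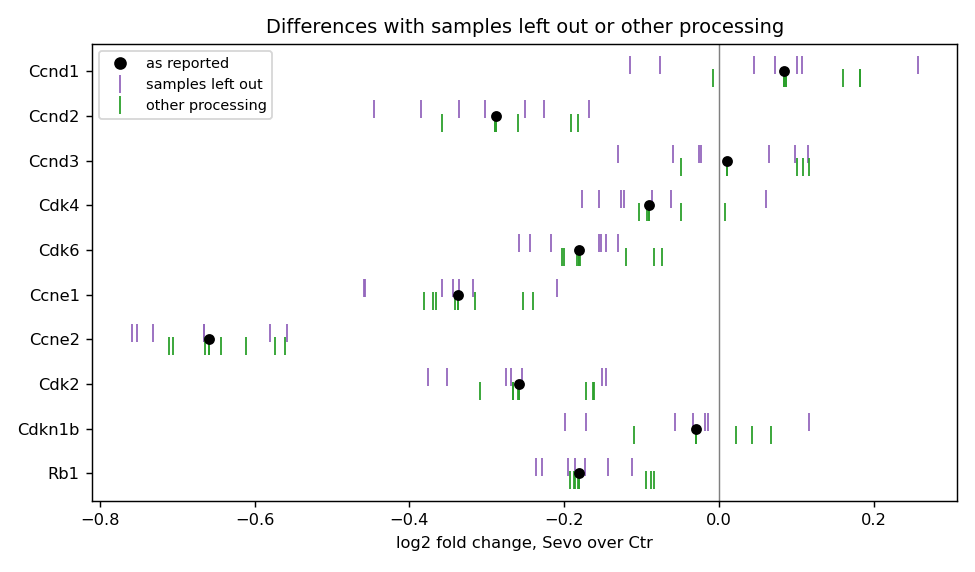
Log2 fold change, Sevo over Ctr (horizontal axis), of each of the 10 genes as reported (point), with samples left out (upper ticks) and under other processing (lower ticks). Ccne2 lies between -0.76 and -0.56 throughout and Ccne1 between -0.46 and -0.21, while Ccnd1, Ccnd3, Cdk4 and Cdkn1b lie on both sides of 0.

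Under the 19 alternatives the sign of the difference was negative throughout for Ccne2, Ccne1, Ccnd2, Cdk2, Cdk6 and Rb1. Ccne2 had an unadjusted limma p under 0.05 in every one, and its adjusted p ran from 0.0890 to 0.354. Both E-type cyclins kept groups that were apart in every one. Leaving samples out and other pseudocounts, filters or fits cannot bring separated groups together, so only the other scalings could have changed this. The other 4 genes, Ccnd1, Ccnd3, Cdk4 and Cdkn1b, changed sign with the samples or the scaling used, and no direction is given for them.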

How the data were processed

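Total RNA of the fetal cortex was sequenced in 3 Sevo and 3 Ctr samples, grouped by their titles. The authors deposited TPM per gene. Which software made the TPM is unknown from the sources at hand; Bowtie 0.12.2, edgeR, mm8 and mm10 are listed, without roles, in the submitters' processing notes, and the paper names DESeq2. Names turned into dates (27) were restored by Ensembl identifier. Genes with a name and a mean TPM of 1 or more (14518) were compared as log2(TPM + 1) with limma 3.58.1 in R 4.3.3 (eBayes with a trend, two-sided, Benjamini-Hochberg), tested first on simulated data. Positions are GENCODE M21 (GRCm38). Single quantities had exact permutation tests. Mitochondrially encoded genes took 7.89% to 9.13% of the TPM. Genes and lists were chosen with earlier results of these data known. The text names the 10 genes, of each pathway list the 2 most abundant genes and those with an unadjusted p under 0.05, and of each marker list the 2 most abundant. Others are said to be outside this rule, are genes whose exons overlap those of the 10, or are Nkx2-1 and Alas2. Nkx2-1, Alas2 and the overlapping genes with values were singled out after their values were seen. Other pseudocounts, filters, scalings, fits and samples left out were tried. Python 3.11.15, pandas 2.3.3 and matplotlib 3.10.9 made tables and plots.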

Additional observations from a re-analysis of the deposited data

How the results depend on the processing

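No result on the 10 genes crossed an adjusted p of 0.05 (limma) under any alternative. The log2 fold change turned negative for Ccnd1 (-0.0072) and Ccnd3 (-0.050) with sample weights and, with replicate 2 of both groups left out, for Ccnd1 (-0.12) and Ccnd3 (-0.026). It turned positive for Cdk4 (0.0071) and Cdkn1b (0.068) after median centring and for Cdkn1b after quantile normalization (0.022) and with a loess on exon length (0.043), the last added after seeing the data. With 1 sample left out, Ccnd1 ran from -0.08 to 0.26, Ccnd3 from -0.13 to 0.11, Cdk4 from -0.18 to 0.061, Cdkn1b from -0.17 to 0.12 (-0.20 with replicate 2 of both groups left out), and the log2 ratio of Cdk6 over Cdk4 from -0.35 to 0.031. The cause of these turns was not tested.

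Of the 10 genes, the count lower at an unadjusted p under 0.05 was 1 as reported (12.8% of all tested genes), 3 with sample weights (13.9%), 3 with replicate 2 of both groups left out (10.9%) and 1 to 4 with 1 sample left out (7.48% to 15.5%). The count lower with groups apart was 2 as reported (17.7%), 6 with replicate 2 of both groups left out (30.7%) and 2 to 4 with 1 sample left out (21.5% to 26.6%), and the count higher with groups apart was 0 to 1 with 1 sample left out (11.7% to 15.3%). Over the tested genes the deviations of same-numbered samples from their group means had correlations of -0.02, 0.02 and 0.01. With 3 samples per group these values cannot show whether the numbers pair the samples. With the replicate block, 3 of the 10 genes were lower at an unadjusted p under 0.05 (Ccnd2, Ccne2 and Cdk2), against 12.3% of all tested genes, and the log2 ratio of Ccnd2 over Ccnd1 was -0.38 (exact sign-flip test, p = 0.25, its smallest value).

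In the pathway lists the count lower at an unadjusted p under 0.05 was 13 of 62 as reported and 7 to 25 with 1 sample left out, beside the same shares of all tested genes. The count higher was 1 as reported (6.56%), 2 without a filter (4.88%), after median centring (11.6%), after quantile normalization (9%) and with the loess (8.72%), 0 at a minimum of 5 TPM (6.3%), and 0 to 3 with 1 sample left out (4.11% to 7.73%). With groups apart, 12 were lower as reported (17.7% of all tested genes), 6 after median centring (9.59%), 29 with replicate 2 of both groups left out (30.7%) and 12 to 29 with 1 sample left out (21.5% to 26.6%). With groups apart, 2 were higher as reported (9.43%), 4 after median centring (16.1%) and with the loess (12.8%), 1 at a minimum of 5 TPM (8.98%), 5 with replicate 2 of both groups left out (20.7%) and 2 to 5 with 1 sample left out (11.7% to 15.3%). The count past an adjusted p of 0.05 (limma) was 0, and 0 to 1 with 1 sample left out (Gadd45g without Sevo replicate 1).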

Other observations

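Of the G1/S targets of E2F with a RefSeq promoter window, 8 of 16 genes held the E2F letters given above in a window, beside 2.26% of all windows. They were Cdc6, Cdt1, Mcm3, Mcm5, Mcm6, Mcm7, Orc1 and Uhrf1, of which Orc1 alone was at an unadjusted p under 0.05 (limma). The shares are not alike, since 1 counts genes and the other windows. The list was also drawn up as targets of E2F, so the count of matches is no result of these data. Of the E2F and DP genes with a window, 4 of 8 held the letters (E2f2, E2f3, E2f7 and Tfdp1), and of the genes of turnover with a window 1 of 11 (Rbx1). In the remaining lists they were held by Cdkn2a (1 of 5 genes), Rbl1 (1 of 2), Cdc25a (1 of 3) and Cdk1 (1 of 4). Of the genes of quiescence and exit, 0 of 5 held them.

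Markers of cells outside the neural lineage were also read. The summed TPM of 5 endothelial markers was 46.4 to 60.7 in the Sevo samples and 46.0 to 95.6 in the Ctr samples, that of 5 microglial markers 20.4 to 22.7 in the Sevo samples and 20.0 to 29.3 in the Ctr samples, and that of 6 erythroid markers 2683 to 4195 in the Sevo samples and 2182 to 3871 in the Ctr samples. Of these, 0 endothelial, 0 microglial and 2 erythroid markers (Hbb-bs and Alas2, both higher in the Sevo group) were at an unadjusted p under 0.05 (limma). Of all tested genes 12.8% were lower and 6.56% higher at that p. The erythroid markers Hbb-bt, Hba-a1 and Hbb-y, named after their values had been seen, had log2 fold changes of 0.29, -0.02 and -0.26. Of the 4 tested meningeal markers 0 were at that p. The most abundant of each list were Cldn5 and Pecam1 of endothelium (log2 fold change 0.06 and 0.01), C1qa and C1qb of microglia (0.10 and -0.01), Col1a2 and Dcn of the meninges (-0.35 and -0.50), Hbb-bs and Hba-a2 of erythroid cells (0.56 and 0.07) and Dlx1 and Dlx2 of the ganglionic eminence (0.02 and 0.39).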
